A study of Mus musculus with 4 samples.

Results

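The ribosomal protein genes encode the protein part of the cytosolic ribosome, and they were followed here in single-cell RNA libraries of liver leukocytes from exercised and sedentary mice. The members are the 76 gene symbols that begin with Rpl, Rps or Rplp and go on with a number and at most the letter a or x, plus Rpsa, out of 27998 genes listed in the files. They comprise 46 genes of the large (60S) subunit, among them the 3 genes of the P stalk, and 30 genes of the small (40S) subunit, counting Rpsa. The rule uses gene symbols alone. Paralogs and differently named ribosomal genes (Rps3a1, Fau, Rpl22l1 and others) lie outside it.

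Ribosomal proteins are made in near-equal numbers and assembled with ribosomal RNA in the nucleolus into the 2 subunits that read mRNA and join amino acids. Their mRNAs are short and abundant, and most begin with a run of pyrimidines, the 5′ terminal oligopyrimidine tract, through which their translation follows nutrient and growth signals. In blood and tissue leukocytes, lymphocytes are known for a high share of these mRNAs among all mRNAs, and macrophages and granulocytes for a lower one.

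The samples were CD45+ leukocytes of adult wild-type C57BL/6 livers, 2 libraries per group. The exercise mice ran on a motorized treadmill at 12.5 m per min, in sessions of 60 min on 5 days of each week, and did so for 4 weeks. The sedentary mice were placed on a stationary treadmill on the same schedule. Serum alanine aminotransferase, a measure of liver injury, was 26 and 59 U/L beside the exercise libraries and 33 and 56 U/L beside the sedentary ones, so the groups overlapped. Libraries were made with a 10x Genomics 3′ v3 kit, which counts each captured mRNA once by a unique molecular identifier (UMI) near its 3′ end. The labels describe cells, while the series text also speaks of nuclei and of alignment to a pre-mRNA genome.

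After filtering, 2849 and 4078 exercise cells and 3896 and 3737 sedentary cells were kept, with medians of 2031 to 2843 UMIs per cell. Pairs of libraries shared 11 to 31 barcodes. Cells were grouped into 25 clusters without any value of a ribosomal protein gene, and 22 of the clusters were merged into 17 classes named by marker genes; 3 clusters stayed unnamed. Kupffer-like cells, the resident macrophages of the liver, comprised clusters 0 and 1 and carried 10 of 10 Kupffer markers. Cluster 5, left unnamed and outside this class, carried 10 of 10 as well. Its mean log2 excess of Kupffer markers over all other cells was 1.36, against 2.06 in cluster 0 and 1.06 in cluster 1. Its highest such score was for erythroid markers (2.13). It held 102 and 155 exercise and 242 and 215 sedentary cells, and its effect on the Kupffer-like values was not tested. T-like cells comprised cluster 3, led by Cxcr6, and cluster 6, led by Dapl1, Tcf7, Lef1 and Cd8b1. Erythroid markers also gave cluster 6 its highest score (3.18), above its score for T markers. Cluster 6 carried 12 of 12 T markers and 0 of 6 erythroid markers. In cluster 1 the scores for hepatocyte (0.99) and erythroid markers (0.97) lay just below that for Kupffer markers (1.06). Such scores were thus not confined to the unnamed cluster 5. The labels do not say whether the libraries came from separate animals, so p-values measure the spread between these libraries, which may be technical.

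The start sites of the members that differed most and least between T-like and Kupffer-like cells are printed because the pyrimidine run at the start is the feature the family is known for. RefSeq start windows (GRCm38.p6) matched 56 of the 76 members. Each line gives 30 bases on the gene's own strand, and capitals mark the longest run of C and T found between 20 bases before and 30 bases after the annotated start. Runs were counted inside that interval alone, so those of Rps7 and Rpl37a stop at its edge while pyrimidines go on beyond it. Where a gene had several annotated starts, the start with the longest run was printed, while the counts over members and over all genes use the first listed start. The first 5 genes are those with the largest T-like excess, and the next 3 are those with the smallest excess that had a window.
Rplp0 (chr5:115559466-115559495, + strand): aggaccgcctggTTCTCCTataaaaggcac
Rpl13 (chr8:123102324-123102353, + strand): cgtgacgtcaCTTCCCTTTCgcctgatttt
Rpl4 (chr9:64173361-64173390, + strand): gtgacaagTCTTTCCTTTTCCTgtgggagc
Rpl12 (chr2:32961701-32961730, + strand): gagcaggatccgTCTTTTCggctttcggct
Rps7 (chr12:28635913-28635942, - strand): cgctgtccccaCCTCTTTTcttccgccacc
Rpl35a (chr16:33056468-33056497, + strand): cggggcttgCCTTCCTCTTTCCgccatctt
Rpl41 (chr10:128549156-128549185, - strand): gacacacgggccggCTCggaagtgacgaca
Rpl37a (chr1:72711271-72711300, + strand): atgcgcattgcgTCCCTTCctcttcggact

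Runs were present in both sets: 14 bases in Rpl4 and 10 in Rpl13, but also 13 in Rpl35a, while Rpl41 had only 3. The runs of Rpl4 and Rpl13 began 18 and 16 bases before the annotated start and ended before it. Those of Rps7 and Rpl37a began at bases 23 and 24 counted from the start. The run of Rpl35a began 5 bases before the start and crossed it. A run of at least 8 pyrimidines lay in the searched interval in 29 of 56 members (51.8%) and in 18.8% of 27025 genes with a window. The letters CTTTCC, which can lie within such a run, were found on either strand of the 300-base window in 27 of 56 members (48.2%) and in 26.3% of all genes. The letters CCGGAAG, the core bound by ETS family activators, were found on either strand of the 300-base window in 22 of 56 members (39.3%) and in 9.12% of all genes. The letters AAGATGG, part of the site of the factor YY1, were found in 8 of 56 members (14.3%) and in 6.48% of all genes; their first 3 letters can overlap the end of CCGGAAG. These matches describe the windows only.

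The share of a class's UMIs that came from the 76 members differed widely between the classes. Among the 11 named classes in which no library held fewer than 20 cells, it was lowest in Kupffer-like cells, at 12.9% ± 0.56 (SD, n = 4 libraries), and highest in T-like cells, at 33.2% ± 0.93, with B-like cells at 32.7% ± 0.75. Cycling Kupffer-like cells (13.95% ± 0.70), sinusoidal endothelial (LSEC-like) cells (14.2% ± 0.79) and other macrophage-like cells (15.5% ± 0.74) followed the Kupffer-like cells, and each overlapped its neighbour in this order. Classical monocyte-like cells stood at 22% ± 1.03, plasmacytoid dendritic (pDC-like) cells at 22.8% ± 0.33 and NK or ILC-like cells at 23.5% ± 0.41. The 2 conventional dendritic classes were higher, at 27.9% ± 0.76 for cDC2-like and 29.6% ± 1.34 for cDC1-like cells, and they overlapped each other. The B-like and T-like ranges overlapped too, and both lay above every cDC1-like value.

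Neutrophil-like cells had 8.85% ± 3.20, but their exercise 1 value (4.18%) rested on 6 cells. Stellate-like cells had 8.81% ± 0.49 from 3 to 6 cells a library. Along the whole order, the neighbours whose 4 values did not overlap were neutrophil-like and Kupffer-like, pDC-like and NK or ILC-like, NK or ILC-like and cycling cDC1-like, and cDC1-like and B-like cells. Median depth was 1373 to 1731 UMIs in B-like cells and 7035 to 9631 UMIs in cDC1-like cells, and its part in the shares was not tested.

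**Figure D1:**
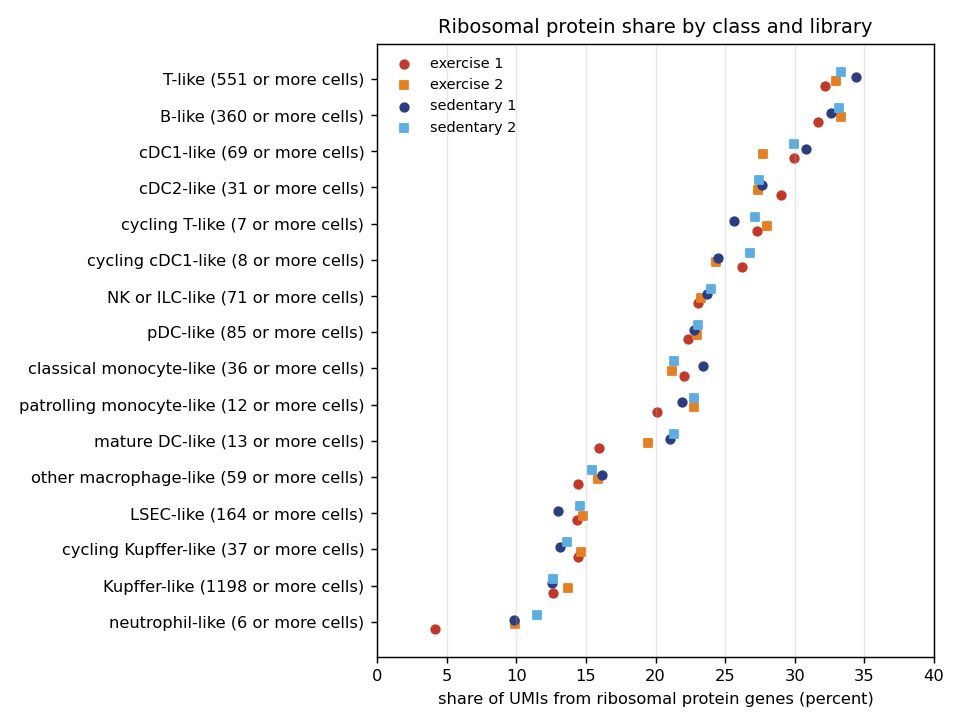
Share of all UMIs from the 76 ribosomal protein genes (x axis, percent) in the named classes with 5 or more cells per library (y axis); each point is 1 library, and the number of cells is that of the smallest library. Kupffer-like values lie between 12.6 and 13.7% and T-like values between 32.1 and 34.4%, and neutrophil-like values spread most.

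Within the 2 largest classes the clusters differed as well. In T-like cells, cluster 6 had 38.6, 41.5, 39.3 and 39.4% of its UMIs from members (exercise 1, exercise 2, sedentary 1, sedentary 2), and cluster 3 had 30.5, 30.9, 31.7 and 31.2%. Every value of cluster 6 lay above every value of cluster 3. In Kupffer-like cells, cluster 0 had 13.7, 14.4, 13.8 and 13.5% and cluster 1 had 10.1, 11.02, 10.9 and 10.4%, again with no overlap. Mitochondrially encoded mRNAs made up 9.82 to 11.1% of UMIs in cluster 1 against 5.25 to 6.54% in cluster 0, and median depth was 1672 to 1835 against 3373 to 4011 UMIs; the part of either in the lower share was not tested.

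Gene by gene, summed UMIs per library were fitted with edgeR's quasi-likelihood test across all genes, with Benjamini-Hochberg adjustment (threshold 0.05). Comparisons between classes or clusters had the library as a term, while exercise was compared within a class with no other term. All 76 members passed the filter on low counts in every fit. In T-like against Kupffer-like cells 75 of 76 members were higher and 1 was lower, where 37.4% of 9703 genes tested were higher and 39.7% were lower. The median difference was 1.47 over members and -0.02 over all genes. In B-like against Kupffer-like cells 74 of 76 were higher and 0 lower (34.7% and 38.3% of 9295 genes), again with a median of 1.47 against -0.06. For the 2 others, Rplp1 and Rps29, the B-like difference was 0.01 ± 0.07 (SE) and -0.00 ± 0.07, and both signs turned under several alternatives. Both comparisons share the Kupffer-like sums.

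The other classes were read in the same way against Kupffer-like cells. In cDC1-like cells 74 of 76 members were higher and 0 lower (30.3% and 33.5% of all genes tested), with a median of 1.62. In cDC2-like cells 72 were higher and 1 lower (24.3% and 28.0%), with a median of 1.25, and in classical monocyte-like cells 71 and 2 (19.2% and 22.3%), with a median of 0.98. In NK or ILC-like cells 63 were higher and 7 lower (24.6% and 33.6%; median 0.77), and in pDC-like cells 65 and 6 (30.3% and 34.5%; median 0.76). Other macrophage-like cells had 56 higher and 6 lower (17.5% and 19.4%; median 0.38). LSEC-like cells had 19 higher and 31 lower, where 30.4% of all genes were called in each direction (median -0.04), and cycling Kupffer-like cells had 7 and 12 (11.3% and 9.95%; median -0.01). In these 2 classes the members were thus split between directions.

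The excess of the T-like cells was uneven between members, and a member kept nearly the same place in every library. Relative to the members' median in the same library, 70 of 76 members stayed on 1 side in 4 of 4 libraries, and the SD of a member's relative difference over libraries had a median of 0.05 and a maximum of 0.13 on the log2 scale. In B-like cells 69 of 76 did so.

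At the high end stood Rplp0, the scaffold of the P stalk that recruits elongation factors. Its level was 859, 935, 847 and 873 CPM (UMIs scaled to a fixed total for each class and library) in Kupffer-like cells and 5618, 5816, 6173 and 5723 CPM in T-like cells (exercise 1, exercise 2, sedentary 1, sedentary 2). The 4 libraries lay far apart by class, and the log2 difference was 2.69 (edgeR adjusted p = 1.46e-16, higher in 4 of 4 libraries). Rpl13, a 60S protein, had 1359, 1586, 1410 and 1434 CPM in Kupffer-like and 8308, 8636, 8797 and 8361 CPM in T-like cells, a difference of 2.52. Rpl4, a long 60S protein that lines the peptide exit tunnel, had 592, 620, 563 and 569 CPM against 3061, 3035, 3203 and 3011 CPM, a difference of 2.35. Rpl12, at the base of the stalk, and Rps7, of the small subunit, both differed by 2.32.

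At the low end stood Rps29, a small zinc-binding 40S protein and the only member lower in T-like cells. Its level was 7810, 9478, 8656 and 9529 CPM in Kupffer-like and 6001, 7454, 7894 and 8761 CPM in T-like cells. The 2 ranges overlapped, but within each library the T-like value was the lower, and the difference was -0.28 ± 0.06 (SE; edgeR adjusted p = 0.000396). Rpl35a rose least among those called higher, from 3080, 3193, 3011 and 2806 CPM to 3721, 3936, 4264 and 4077 CPM (0.36 ± 0.07). Rpl41, the shortest ribosomal protein, and Rpl37a, a zinc-binding 60S protein, rose by 0.37 and 0.38. No library of the 2 classes overlapped for any of these 3. Over all members, every T-like value lay above every Kupffer-like value for 74 of 76, where the same held for 38.3% of 6292 genes with a mean of at least 20 CPM in either class; for B-like cells it held for 74 of 76 as well, against 33.1% of 6154 genes.

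The P stalk itself was split. Rplp1 and Rplp2 are the acidic proteins that bind Rplp0 as dimers. Rplp1 had 3678, 3981, 3780 and 3620 CPM in Kupffer-like and 4733, 5209, 5296 and 5020 CPM in T-like cells, a log2 difference of 0.39. Rplp2 had 2223, 2451, 2356 and 2232 CPM against 5272, 5398, 5602 and 5312 CPM, a difference of 1.18. So the 3 stalk genes differed by 2.69, 1.18 and 0.39, although their proteins sit in 1 complex. Rpsa, the 40S protein also known as the laminin receptor, lay near the members' median, at 1038, 1117, 1112 and 1052 CPM in Kupffer-like and 2874, 3003, 3170 and 2876 CPM in T-like cells (1.43 ± 0.07). By subunit there was little between the groups: the median T-like difference was 1.46 over the 46 genes of the 60S and 1.503 over the 30 of the 40S subunit.

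In B-like against Kupffer-like cells, which shares the Kupffer-like sums, the highest 5 members were Rpl13 (2.54), Rpl4 (2.48), Rps27 (2.38), Rps7 (2.34) and Rplp0 (2.33). The lowest 5 were Rps29, Rplp1, Rpl37a (0.35), Rpl41 (0.49) and Rps27a (0.52). Rps27, a 40S zinc-finger protein, had 3101, 3275, 2986 and 3234 CPM in Kupffer-like cells and 15043, 15438, 15959 and 18040 CPM in B-like cells. Its near-identical retrogene copy Rps27rt is listed separately and held 107234 UMIs in all kept cells against 305640 for Rps27, so reads of the pair could be split between them. In all, 15 pseudogene or retrogene copies of 14 members held UMIs. Copies under other symbols were not in that count, such as Rpl36al (36620 UMIs against 67214 for Rpl36a) and Rpl6l (11964 against 99283 for Rpl6).

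The uneven excess went with the length of the protein. Coding length, taken from GENCODE M21 for all 76 members, ran from 25 codons (Rpl41) to 419 codons (Rpl4). The median T-like difference was 0.92 over the 25 shortest (25 to 133 codons), 1.54 over the 25 in the middle (135 to 184) and 1.78 over the 26 longest (188 to 419). Spearman's rho across the 76 genes was 0.58 for T-like and 0.53 for B-like cells, as a description: the genes share the same libraries and the same Kupffer-like sums. Between the 2 T-like clusters, which differ in the members' level too, rho was 0.03. Between the 2 Kupffer-like clusters, where members were lower in cluster 1, it was -0.39.

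**Figure D2:**
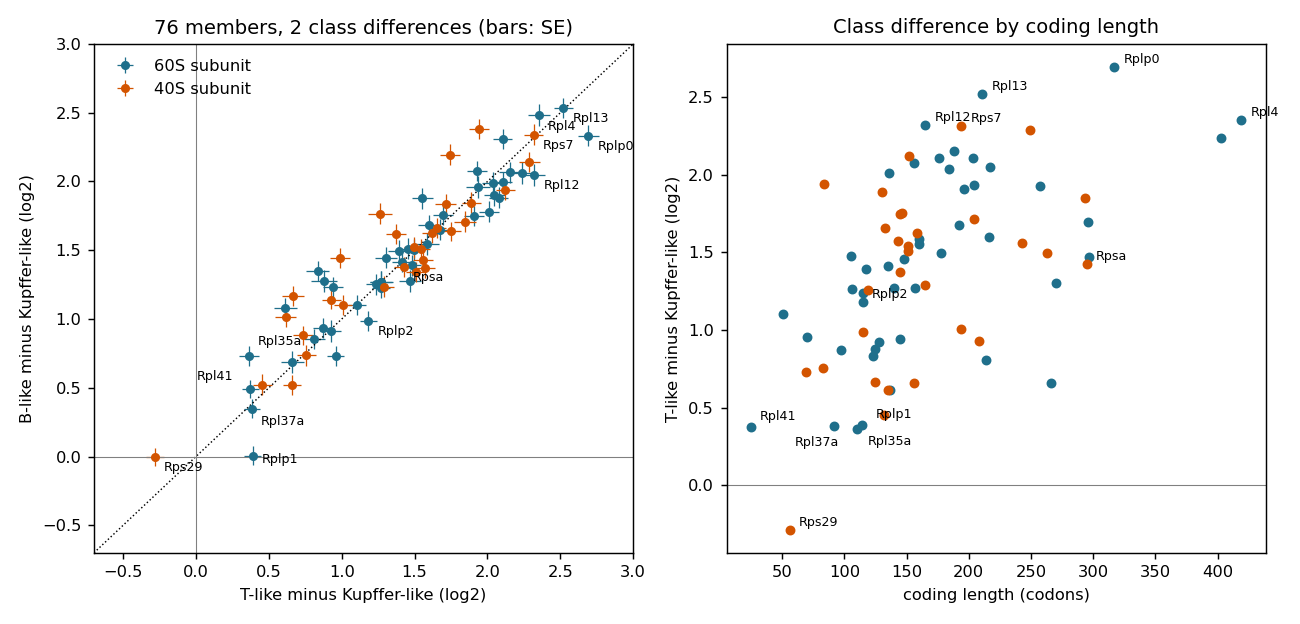
Left, log2 difference of each of the 76 members between T-like and Kupffer-like cells (x axis) against that between B-like and Kupffer-like cells (y axis), bars showing the SE and the dotted line equality; right, the T-like difference against coding length in codons, with both subunits coloured. Rps29 sits at -0.28 and Rplp0 at 2.69 on the T-like axis, and the short members lie low.

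Between the clusters of a class the members moved in other ways. In cluster 6 against cluster 3, 74 of 76 members were higher and 0 lower (11.3% and 10.8% of 6287 genes), with a median of 0.56, and the 2 others were Rpl27 (0.11 ± 0.05, adjusted p = 0.137) and Rpl38 (0.11 ± 0.05, adjusted p = 0.0911). In cluster 1 against cluster 0, 68 members were lower and 2 higher (21.3% and 20.3% of 8291 genes), with a median of -0.73. The 2 that were higher were Rpsa, from 944, 1034, 987 and 954 to 1287, 1458, 1289 and 1293 CPM (0.29 ± 0.04), and Rpl37a (0.21 ± 0.03). Rpl15, a 60S protein, fell from 775, 687, 717 and 659 to 334, 260, 347 and 292 CPM (-1.36 ± 0.05). The genes named here were chosen after their values were seen.

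Other genes of protein synthesis were read from lists. Over all 9703 genes tested in T-like against Kupffer-like cells, 3631 were higher and 3855 lower, with a median of -0.02. The genes named from each list are those with the smallest p in the edgeR fit, not the largest difference. Of 9 elongation genes 8 were higher and 1 lower in T-like against Kupffer-like cells (median 1.29), led by Eef1g (2.15), Eef1a1 (1.13) and Eef2 (1.45). The factor encoded by Eef1a1 brings aminoacyl-tRNA, and that encoded by Eef2 moves the ribosome. Of 30 initiation genes 18 were higher and 6 lower (median 0.62), led by the eIF3 subunits Eif3e (2.25), Eif3f (1.65) and Eif3h (1.65). Ribosome biogenesis genes tested numbered 36, of which 26 were higher and 2 lower (median 0.87), among them Npm1 (1.83) and Nop56 (1.58), nucleolar proteins. Among 76 tested genes of the mitochondrial ribosome 43 were higher and 8 lower (median 0.40). All 13 mitochondrially encoded mRNAs had negative differences and 12 were called lower (median -1.20).

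Exercise was compared within each class. In Kupffer-like cells the members' share was 12.67 and 13.7% in the exercise libraries and 12.59 and 12.61% in the sedentary libraries, a difference of the means of 0.605 percentage points. The groups did not overlap, but the 95% exact binomial interval of exercise 1 (12.63 to 12.70%) reached into that of sedentary 2 (12.58 to 12.65%); such intervals cover counting error only. Without exercise 2 the difference was 0.07 points. In T-like cells the share was 32.1 and 33.0% against 34.4 and 33.3%, a difference of -1.29 points with no overlap. With 2 libraries against 2, an exact two-sided permutation test cannot give a p below 0.33, so no test was made on the shares.

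The makeup of the classes differed between libraries. Cluster 6, with the higher share, held 18.9 and 17.2% of T-like cells in the exercise libraries and 33.3 and 23.6% in the sedentary ones, with no overlap. Within cluster 3 the difference was -0.73 points (30.5 and 30.9 against 31.7 and 31.2%, no overlap), and within cluster 6 it was 0.75 points with overlap. With both clusters at equal weight the T-like difference was 0.01 points. Equal weight counts cluster 6 for more than the 17.2 to 33.3% of T-like cells it held, and weights set by the cells were not used. Cluster 1, with the lower share, held 45.4 and 34.2% of Kupffer-like cells in the exercise libraries and 57.8 and 44.98% in the sedentary ones, so there the groups overlapped. The difference was 0.37 points within cluster 0 and -0.08 within cluster 1, both with overlap, and 0.15 at equal weight. These clusters depend on a step changed after the data were seen: with genes scaled to unit variance, 1 Kupffer cluster held 582 and 1034 exercise against 89 and 183 sedentary cells, and another 44 and 51 against 782 and 616. Differences within the clusters of that version were not computed.

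**Figure D3:**
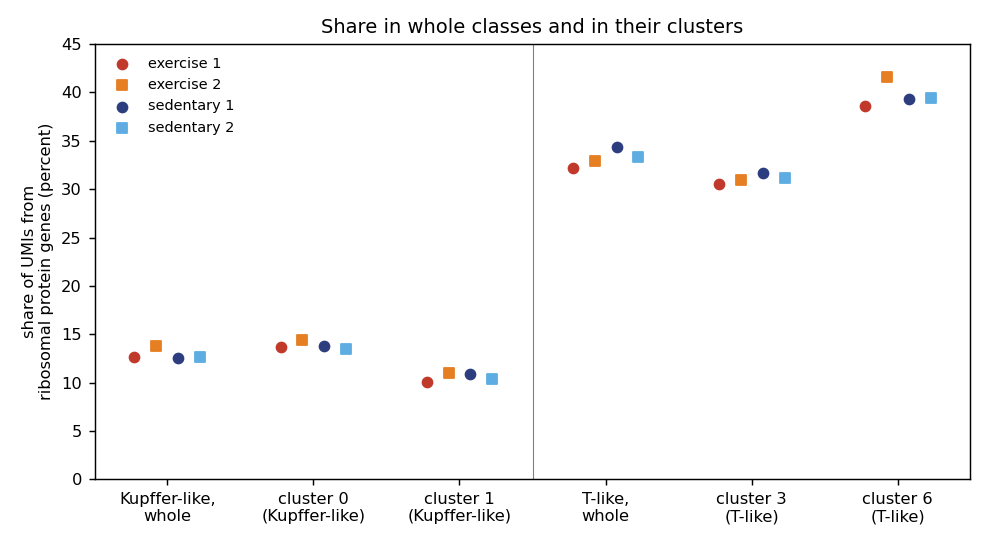
Share of UMIs from the 76 members (y axis, percent) in whole Kupffer-like and T-like cells and in the 2 clusters of each; each point is 1 library. The exercise and sedentary libraries lie apart in both whole classes and in cluster 3, and overlap in clusters 0, 1 and 6.

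Other transcripts moved beside these shares. In Kupffer-like cells mitochondrially encoded mRNAs made up 6.67 and 6.14% of UMIs in exercise and 8.41 and 7.22% in sedentary libraries. In T-like cells they made up 2.95 and 2.95% against 3.41 and 2.92%, which overlapped; all 13 had negative exercise differences there (median -0.22), with 0 called. Of the 10 hepatocyte markers, all 10 were tested and called lower with exercise in Kupffer-like cells; their summed level was 0.51 and 0.38 UMIs per cell in exercise against 3.51 and 2.19 in sedentary libraries. In T-like cells it was 0.06 and 0.06 against 1.03 and 0.49, and hemoglobin mRNAs stood at 20.2 UMIs per cell in sedentary 1 and at most 0.03 in the others. In Kupffer-like cells hemoglobin mRNAs stood at 0.33 and 1.00 UMIs per cell in exercise and 3.13 and 2.81 in sedentary libraries, and of 4 hemoglobin and erythroid markers tested all 4 had negative differences and 2 were called lower (median -2.39). With mitochondrial, hepatocyte and hemoglobin UMIs left out of the total, the difference was 0.41 points in Kupffer-like cells, now with overlap, and -1.56 in T-like cells. Of the genes that tissue dissociation can induce (AP-1, Egr and heat shock genes), 18 of 19 had negative exercise differences in Kupffer-like cells, with 1 called, and 16 of 17 tested did in T-like cells, with 3 called. The part of these transcripts in the shifts was not tested.

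No member passed the test for exercise in Kupffer-like cells (0 of 76, where 0.0101% of 9875 genes were called higher and 0.486% lower). At an unadjusted p under 0.05 there were 0 members, against 5.95% of all genes, and DESeq2 called 0 as well. The differences were small and mostly of 1 sign, 70 positive and 6 negative, with a median of 0.12 against 0.00 over all genes; without exercise 2 the members' median was 0.046. For 42 of 76 members both exercise values lay above both sedentary values and for 1 below, where 16.0% and 20.1% of 5142 genes did so. Rpl24, a 60S protein at the subunit interface, had 915 and 1031 CPM in exercise and 823 and 853 CPM in sedentary libraries (0.24 ± 0.11, adjusted p = 0.863). Rpl3, which helps form the peptidyl transferase centre, had 858 and 875 against 764 and 760 CPM (0.21 ± 0.10). Rpl15 had a difference of 0.19, and the lowest were Rpl38 at -0.07 and Rps29 at -0.05. Within cluster 0 the median was 0.07 (67 positive, 9 negative; 0 called, 0.0107% of genes higher and 0.375% lower), with 30 members above and 1 below (16.3% and 18.2%). Within cluster 1 it was -0.04 (24 positive, 52 negative; 0 called, 0.0128% and 0.345%), with 6 above and 10 below (16.3% and 15.6%).

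In T-like cells no member passed either (0 of 76, against 0.0% of 8366 genes called higher and 0.179% lower), and DESeq2 called 0. There were 8 members (10.5%) at an unadjusted p under 0.05, all with negative differences, against 6.68% of all genes. The count of calls moved with the filter and with 1 library: with no filter on low counts edgeR called 4 members lower (Rpl35, Rps27, Rps28 and Rps29), and without exercise 2 it called 2 (Rpl35 and Rps29). All 76 differences were negative, with a median of -0.09 against -0.01 over all genes; it was -0.046 without sedentary 1 and -0.040 with library totals in place of TMM scaling. In 17 of 76 members both exercise values lay below both sedentary ones and in 4 above, where 12.4% and 27.3% of 4865 genes did so. Rps28, a small 40S protein at the mRNA exit, had 4930 and 4652 CPM in exercise and 5839 and 5761 CPM in sedentary libraries (-0.33 ± 0.07, edgeR adjusted p = 0.170). Rps27 had 11564 and 11622 against 13278 and 13309 CPM (-0.26 ± 0.06, adjusted p = 0.256), and Rps29 had 6001 and 7454 against 7894 and 8761 CPM (-0.36 ± 0.11, adjusted p = 0.436). None of the 3 overlapped between groups. The stalk genes Rplp0, Rplp1 and Rplp2 had -0.12, -0.11 and -0.09 in T-like cells and 0.08, 0.07 and 0.05 in Kupffer-like cells, and Rpsa had -0.10 and 0.02. Rps28 was also the 1 member with both exercise values below both sedentary ones in Kupffer-like cells (3047 and 3012 against 3082 and 3207 CPM), and both Rps27 and Rps28 were below in B-like cells, where 8 members were below and 6 above (14.8% and 20.2% of 4743 genes).

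For Rps27 and Rps28 the groups also stayed apart within each T-like cluster. Rps28 stood at 4429 and 4174 against 5064 and 5086 CPM in cluster 3, and at 6880 and 6679 against 7255 and 7699 CPM in cluster 6. Rps27 stood at 11147 and 10981 against 12464 and 12594 CPM in cluster 3, and at 13186 and 14345 against 14765 and 15363 CPM in cluster 6. Neither passed the test there, and the fitted differences of Rps28 were -0.28 ± 0.06 and -0.18 ± 0.13. Over all members in cluster 6 the signs were mixed, 41 positive and 35 negative with a median of 0.01, and 0 were called (0.0% of genes higher, 0.401% lower). In cluster 3 there were 4 positive and 72 negative with a median of -0.05, and 0 were called (0.013% higher, 0.117% lower). Non-overlapping members numbered 4 above and 14 below in cluster 3 (21.4% and 14.2% of genes) and 23 above and 4 below in cluster 6 (20.7% and 15.3%).

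**Figure D4:**
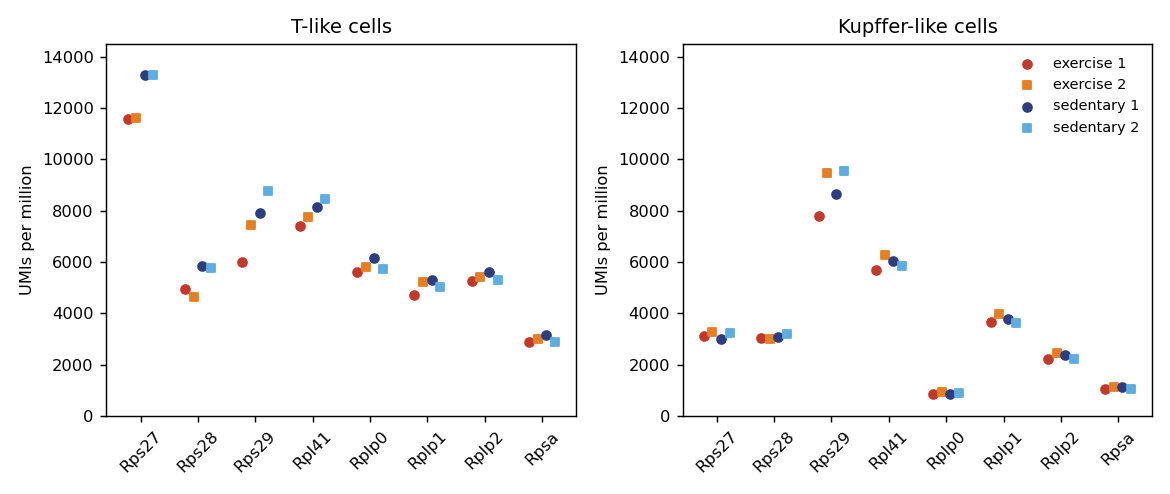
Level of 8 members (CPM, y axis from 0) in T-like (left) and Kupffer-like cells (right), 1 point per library. In T-like cells the exercise points of Rps27, Rps28 and Rps29 lie below the sedentary ones, while in Kupffer-like cells the groups overlap for Rps27 and Rps29.

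Some members varied widely between libraries of the same group. Rpl35, a 60S protein near the exit tunnel, had the most negative T-like difference (-0.39 ± 0.21) with 1816 and 3172 CPM in exercise and 2823 and 3474 CPM in sedentary libraries. In Kupffer-like cells it had 1071 and 1929 against 1352 and 1794 CPM, and in B-like cells 2686 and 4548 against 3391 and 4685 CPM. In all 3 classes the first library of each group was below the second library of either group. Rps29 had the lower value in the first library of each group in all 3 classes too, with 7222 and 8894 against 8552 and 10211 CPM in B-like cells. These genes were chosen after their values were seen, and what differed between the libraries was not tested.

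The difference of the 2 responses was tested in 1 fit over both classes, with library and class as terms. This pair of classes and its opposite directions were taken up with earlier results of these data known. The members also share the same libraries, so counts of members are a description here and not independent evidence. For all 76 members the T-like response was below the Kupffer-like one, with a median of -0.21 against -0.01 over all genes. None passed the test (0 of 76, against 0.0193% of 10337 genes higher and 0.0677% lower), and DESeq2 called 0, while 35 members (46.1%) had an unadjusted p under 0.05, against 6.07% of all genes. For 10 members both exercise values lay above both sedentary ones in Kupffer-like and below them in T-like cells, where 1.67% of 3715 genes with a mean of at least 20 CPM in both classes did so. With no filter 2 were called lower (Rps27 and Rps29), and without exercise 1 there was 1 (Rps27). Rps29 had the smallest p (-0.31 ± 0.07, edgeR adjusted p = 0.242), followed by Rps27 (-0.31 ± 0.08, adjusted p = 0.443), Rpl35a (-0.31 ± 0.09) and Rps28 (-0.30 ± 0.09). The stalk genes Rplp0, Rplp1 and Rplp2 had -0.19, -0.18 and -0.13, and Rpsa had -0.11. Between cluster 3 and cluster 0 alone, the median was -0.11 and 11 members (14.5%) had an unadjusted p under 0.05, against 4.87% of all genes. In that comparison 0 members were called (0.0104% of genes higher, 0.0208% lower).

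**Figure D5:**
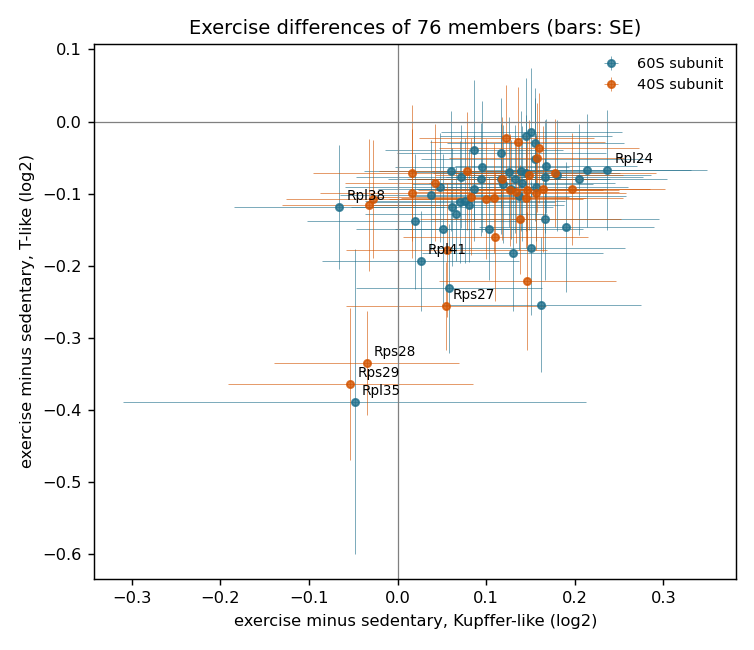
Exercise minus sedentary log2 difference of each of the 76 members in Kupffer-like cells (x axis) and T-like cells (y axis), bars showing the SE. All points lie below 0 on the T-like axis and 70 lie above 0 on the Kupffer-like axis, and no member passed the test in either class.

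The other lists of protein synthesis showed no call with exercise. In Kupffer-like cells 0 of 9 elongation, 0 of 30 initiation and 0 of 36 biogenesis genes were called, with medians of 0.01, 0.05 and -0.10. In T-like cells 0 of 8, 0 of 30 and 0 of 36 were called, with medians of -0.04, 0.03 and 0.03. The mitochondrial ribosome had 0 of 76 in both, with 59 positive and 17 negative differences in Kupffer-like cells (median 0.11) and 40 and 36 in T-like cells (median 0.02).

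In the 9 other classes tested no member was called for exercise. The median member difference was -0.03 in B-like cells (19 positive, 57 negative; 0.0304% of genes called higher and 0.228% lower), -0.12 in cDC1-like (3 and 73; 0.0% and 0.0%), 0.04 in cDC2-like (59 and 17; 0.0% and 0.0298%) and -0.03 in classical monocyte-like cells (29 and 47; 0.0% and 0.0%). It was 0.14 in cycling Kupffer-like (72 and 4; 0.0% and 0.0279%), 0.06 in LSEC-like (60 and 16; 0.0161% and 0.129%), -0.04 in NK or ILC-like (18 and 58; 0.0% and 0.0%), -0.06 in other macrophage-like (11 and 65; 0.0% and 0.0%) and -0.03 in pDC-like cells (23 and 53; 0.0% and 0.0%). At an unadjusted p under 0.05 there were 0 to 4 members (at most 5.26%) in each of these classes. Over all genes tested the share ran from 2.86% (classical monocyte-like) to 6.38% (other macrophage-like).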

How the data were processed

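In all, 4 liver leukocyte libraries (2 exercise, 2 sedentary) were analysed. The deposited matrices hold raw UMI counts for every gene in every barcode. The submitters' processing notes name Cell Ranger, Seurat 3.1 and mm10 (GRCm38). The series text speaks of a pre-mRNA genome, so intronic reads may be counted; whether strand was used was not stated. Totals were 10050976 to 14849778 UMIs per library. Cells below 500 UMIs or 200 genes, or above 20% mitochondrial UMIs, were dropped; simulated-neighbour doublets were removed at 0.8% per 1000 cells. Clustering (2000 variable genes, 30 principal components, 20 neighbours, Leiden resolution 1) left out all Rpl and Rps genes. A first run scaled genes to unit variance and gave Kupffer clusters that held mostly exercise or mostly sedentary cells; scaling was then dropped, after the clusters and their ribosomal shares had been seen, and is kept as an alternative for the whole classes. Sums of UMIs for each class in each library were tested with edgeR 4.0.16 (TMM, filterByExpr, quasi-likelihood F-test, Benjamini-Hochberg over all genes); the SE is the absolute log2 difference divided by the root of F. DESeq2 1.42.0 and other scalings, filters, cell sets and left-out libraries were alternatives. The scripts were tested on simulated data. Named members are the 5 highest and 5 lowest in each class comparison, the 4 smallest p per direction for exercise, the P stalk and Rpsa, and others where stated. The members and lists were chosen with earlier results of these data known. No sequences of proteins and no start windows of 20 members were used here. Values of some genes that the rule would name are not reported here.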

Additional observations from a re-analysis of the deposited data

Results flagged for a closer look

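The exercise difference of the members' share had opposite directions in different classes, with every exercise library on 1 side of every sedentary library in each. It was 0.605 percentage points in Kupffer-like and 1.14 in cycling Kupffer-like cells, and -1.29 in T-like and -0.665 in NK or ILC-like cells. The difference between these classes was not tested on the shares. They were flagged because their groups lay apart, and with 2 libraries against 2 such a split has a permutation p of 0.33. They are among 11 named classes with at least 20 cells in each library, and no allowance was made for the number of classes looked at. In the other classes tested, the members' median log2 differences ran from -0.12 (cDC1-like) to 0.06 (LSEC-like), with -0.06 in other macrophage-like cells.

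In 10 members both exercise libraries lay above both sedentary ones in Kupffer-like cells and below them in T-like cells, among them Rpl35a, Rpl37a, Rps20 and Rps25. The same pattern held for 1.67% of 3715 genes with a mean of at least 20 CPM in both classes. None of the 10 passed the test of the response difference.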

How the results depend on the processing

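Of 840 alternative values of single members, 805 kept their direction and side of the threshold, 28 turned and 7 passed it newly; of 304 values of counts, medians and shares, 276 stayed and 28 moved. The counts of members called in the class comparisons stayed within 1.5 times under every alternative run; unit-variance scaling and the splits by cluster were added after the data were seen. The causes of the changes below were not tested.

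In T-like cells 4 members were called lower with exercise with no filter on low counts (Rpl35, Rps27, Rps28 and Rps29), and 0 to 2 when 1 library was left out, the 2 being Rpl35 and Rps29 without exercise 2. For the response difference 2 were called with no filter (Rps27 and Rps29) and 0 to 1 with a library left out (Rps27, without exercise 1). With a library left out the T-like median ran from -0.14 to -0.046, Rps29 there from -0.54 to -0.20, the response median from -0.26 to -0.14 with Rps27 from -0.38 to -0.21, and the Kupffer-like median from 0.046 (without exercise 2) to 0.19. Library totals without TMM gave medians of -0.040 in T-like cells and -0.13 for the response; no filter gave -0.067 in T-like cells and 1.35 for B-like against Kupffer-like cells, and doublets kept gave 1.42 for the latter. Without a filter the median of all genes was -0.16 in the T-like and -0.33 in the B-like class comparison.

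By cluster, the exercise median was -0.044 in cluster 1, -0.047 in cluster 3 and 0.0096 in cluster 6; cluster 3 against cluster 0 gave 1.18 for the class difference and -0.11 for the response. The share difference was -0.083 points in cluster 1, 0.75 in cluster 6 and 0.0094 in T-like cells at equal cluster weight. That weight exceeded the part of T-like cells that cluster 6 held in any library. With mitochondrial, hepatocyte and hemoglobin UMIs left out, shares were 13.9% in Kupffer-like, 34.3% in T-like and 34.2% in B-like cells, and the mean of single-cell shares was 12.0% in Kupffer-like cells.

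Signs turned for small differences. In Kupffer-like cells leaving out a library gave -0.18 to 0.049 for Rpl38, -0.22 to 0.10 for Rps29, -0.099 to 0.029 for Rps28, -0.061 to 0.0019 for Rps26, -0.00433 to 0.15 for Rplp1, -0.041 to 0.14 for Rplp2 and -0.055 to 0.090 for Rpsa. Rpsa was -0.0060 with library totals, and cluster 1 gave -0.11 for Rpl15 and -0.087 for Rplp0. In cluster 6 the T-like values were 0.062 for Rplp0, 0.014 for Rplp1, 0.036 for Rplp2 and 0.0068 for Rpsa. In B-like against Kupffer-like cells Rplp1 was -0.021 with library totals, -0.11 with no filter, -0.021 with doublets kept, -0.00097 with stricter cells, -0.0090 with members in the clustering, -0.0070 at Leiden resolution 0.5, and -0.019 to 0.018 with a library left out. Rps29 there was 0.026 with TMM outside members and mitochondrial, hepatocyte and hemoglobin genes, and -0.063 to 0.032 with a library left out.

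Same-numbered libraries deviated together by correlations of 0.188, 0.128 and 0.109 (Kupffer-like, T-like, B-like), but with 2 pairs and no label of a shared batch the numbers were not taken as a pairing. With the replicate block 1 member was called lower in T-like cells (Rpl35), and medians were 0.12 in Kupffer-like cells, -0.09 in T-like cells and -0.21 for the response, with 0 called in the last and in Kupffer-like cells. Without the library block the class comparisons called 75 higher and 1 lower (T-like) and 74 and 0 (B-like), with Rps29 at 0.0069 in B-like cells.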
